A study of Mus musculus with 10 samples.

Results

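Serpins are a superfamily of proteins that share 1 fold, and most of them inhibit serine or cysteine proteases. A serpin offers an exposed loop to its target protease, which cuts the loop and is then trapped in a covalent complex, so each inhibitor molecule is used up. In the ovarian follicle, secreted serpins are best known for restraining plasminogen activators and thrombin while the matrix is remodelled around ovulation, and members of clade B act mainly inside cells. The family was described here through all 63 symbols of the deposited mouse table that begin with Serpin, a clade letter from a to i and a digit, of 23234 symbols in all. The rule itself reads names and no measured value.

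Levels were given as FPKM, sequenced fragments scaled to transcript length and to the mapped fragments of the library, in 10 libraries of total RNA. There were 3 libraries of C57BL/6 cumulus cells, the granulosa cells around the oocyte, from animals 2 months old and another 3 from animals 10 months old. The follicle wall was represented by 2 libraries of mural granulosa cells from C57BL/6 animals 2 months old. The remaining 2 libraries held cumulus-oocyte complexes (COC) of animals 3 weeks old that had received PMSG, a gonadotropin: 1 of BDF1, a cross of C57BL/6 and DBA/2, and 1 of DBA/2. The protocols name a medium with the phosphodiesterase inhibitor milrinone, and name gonadotropin-primed mice (eCG, another name of PMSG) for the mural cells. The sources used here do not say whether the cumulus donors were primed, so priming and cell type cannot be told apart in the mural contrast. In the complexes, strain, age, priming and the presence of the oocyte cannot be told apart from each other. The labels do not say whether replicates came from separate animals or from pools, so p-values measure the spread between these libraries only.

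Summed FPKM ran from 470377 to 603460 per library, and 11373 to 12637 genes reached an FPKM of 1. Read depth is unknown. Marker genes followed the labels in part. The summed FPKM of 9 mural markers was 2352 and 4460 in mural cells and 76.2 to 99.8 in cumulus cells at 2 months, but it reached 1272 in cumulus replicate 3 at 10 months. That library also had the highest summed immune markers (85.3). The sum of 7 cumulus markers was 563.5 to 1025 in cumulus cells of both ages and 295 and 141 in mural cells. It was 737 in the BDF1 and 275 in the DBA/2 complex, where Amh stood at 437 and 44.6 FPKM and Npr2 at 231 and 196. Of 12 oocyte markers, 8 were at 0 in cumulus replicate 2 at 2 months (Zp1, Zp2, Zp3, Nlrp5, Figla, Oosp1, Dppa3 and Mos). Their sum was 1077 in replicate 3 and 2871 to 2968 in the complexes, so the cumulus libraries held oocyte transcripts to unequal extents.

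The upstream sequences of 4 members are shown. Of these, 2 (Serpine2 and Serpinh1) carried most of the family's transcript. The other 2 are neighbours on chromosome 12 (Serpina5 and Serpina3a). With at least 5 FPKM in both complexes, they alone were above all 8 C57BL/6 libraries in both. Each run holds the 250 bases before the transcript start listed by RefSeq, 5′ to 3′ on the gene's strand, in build GRCm38.p6. They lie at chr12:104112474-104112723 (plus strand) for Serpina3a, chr12:104100863-104101112 (plus strand) for Serpina5, chr1:79858666-79858915 (minus strand) for Serpine2 and chr7:99353240-99353489 (minus strand) for Serpinh1. Capitals mark matches, on either strand, to TATAAA (the TATA box) or GGGCGG (the GC box bound by SP1). The letters AGGTCA (a nuclear receptor half-site) and TAATTG (the core bound by the oocyte factor NOBOX) were searched too, also on either strand, and had 0 matches in all 4 windows.
Serpina3a: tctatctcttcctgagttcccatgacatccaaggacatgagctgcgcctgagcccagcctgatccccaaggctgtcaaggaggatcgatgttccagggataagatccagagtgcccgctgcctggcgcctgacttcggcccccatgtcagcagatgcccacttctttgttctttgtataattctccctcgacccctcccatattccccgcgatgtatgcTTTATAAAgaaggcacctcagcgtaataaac
Serpina5: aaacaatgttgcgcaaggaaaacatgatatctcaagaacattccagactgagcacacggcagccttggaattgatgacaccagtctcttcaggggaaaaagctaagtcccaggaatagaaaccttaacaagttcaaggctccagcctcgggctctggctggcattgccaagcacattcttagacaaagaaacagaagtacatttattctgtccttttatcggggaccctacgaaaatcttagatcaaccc
Serpine2: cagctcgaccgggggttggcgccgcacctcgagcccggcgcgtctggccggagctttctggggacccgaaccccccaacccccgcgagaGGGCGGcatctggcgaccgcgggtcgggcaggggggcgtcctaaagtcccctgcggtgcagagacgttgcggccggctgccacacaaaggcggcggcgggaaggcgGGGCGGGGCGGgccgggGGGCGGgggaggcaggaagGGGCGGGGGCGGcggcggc
Serpinh1: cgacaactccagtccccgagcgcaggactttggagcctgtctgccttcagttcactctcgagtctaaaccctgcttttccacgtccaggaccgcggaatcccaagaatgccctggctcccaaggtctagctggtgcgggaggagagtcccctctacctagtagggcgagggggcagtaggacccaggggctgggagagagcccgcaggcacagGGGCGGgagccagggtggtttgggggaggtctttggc
The Serpina3a window held TATAAA beginning at position -29 from the start, overlapped by its reverse form beginning at -31. TATAAA was present in 13.0% of the windows of 27025 genes. The Serpine2 window was 78.8% G and C and held 6 matches to GGGCGG, of which 1 pair overlapped. The Serpinh1 window held 1 such match, and 32.9% of all windows held at least 1. The Serpina5 window held none of the 4 motifs, which says only that these letters are not in this window. AGGTCA was present in 13.8% and TAATTG in 7.34% of all windows.

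Most of the family stayed below an FPKM of 1 in these cells. In single libraries, 10 to 24 of the 63 members reached an FPKM of 1, against 11373 to 12637 of 23234 genes. Read depth is unknown, so an FPKM of 0 does not show that a gene was silent. Of 63 members, 16 were listed at 0 in all 10 libraries, 19 stayed below an FPKM of 1 in every library, and 28 reached 1 in at least 1 library. An FPKM of 5 was reached by 16 and of 20 by 8. Clade B, with 27 members, had 12 that reached an FPKM of 1 and 10 at 0 throughout, and clade A, with 25 members, had 9 and 5. The members at 0 throughout included Serpinb5, Serpinb7 and Serpinb13, which are known from epithelia. Others at 0 were Serpina7, which carries thyroid hormone in plasma, and Serpina10, which inhibits coagulation factor X in plasma.

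**Figure D1:**
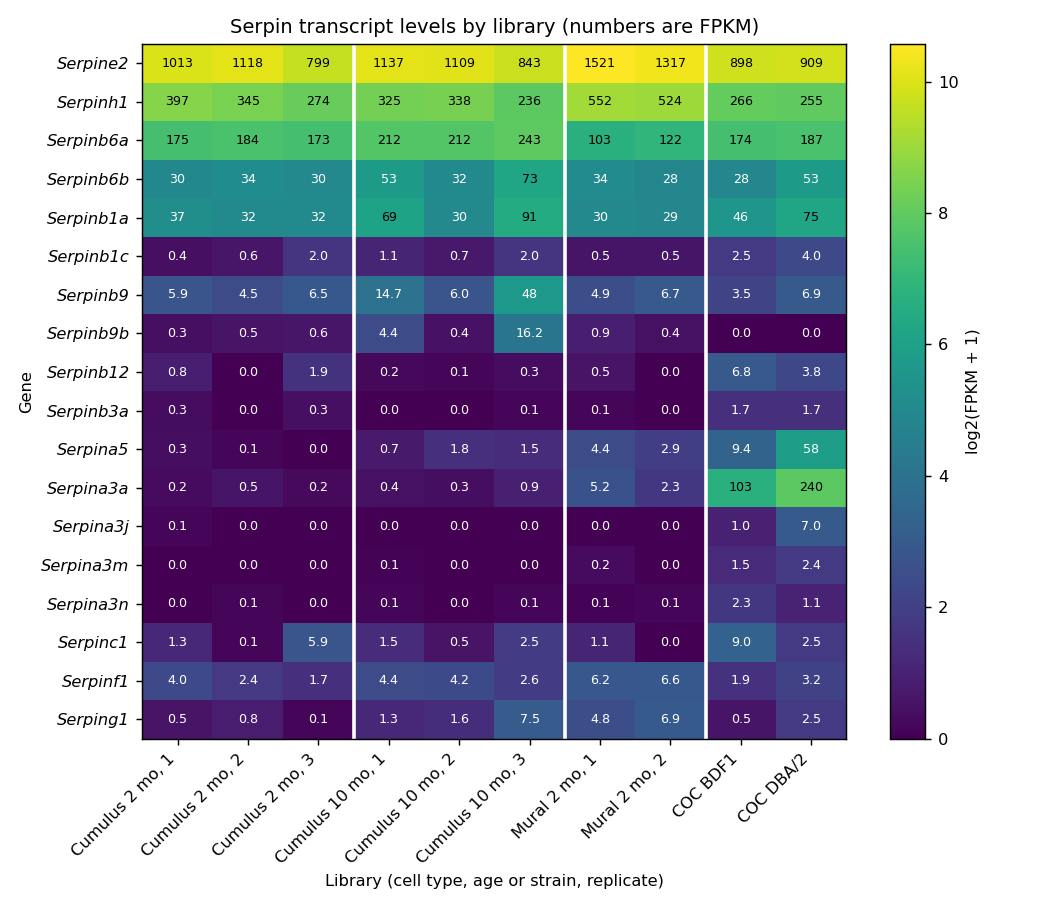
Heatmap of the 18 members that the naming rule took, with libraries in columns and the colour giving log2(FPKM + 1); the numbers in the cells are FPKM. Serpine2 stands between 799 and 1521 FPKM in all 10 libraries, while Serpina3a runs from 0.192 in a cumulus library to 240.4 in the DBA/2 complex.

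Serpine2 encodes protease nexin-1, a secreted inhibitor of thrombin, urokinase and tissue plasminogen activator. It stood at 1013, 1118 and 799 FPKM in cumulus cells at 2 months, at 1137, 1109 and 843 at 10 months, at 1521 and 1317 in mural cells, and at 898 and 909 in the BDF1 and DBA/2 complexes. It was the highest serpin in every library, made up 49.6 to 66.7% of the summed serpin FPKM, and ranked between 24 and 110 among all genes of a library. Serpinh1 encodes HSP47, a collagen chaperone of the endoplasmic reticulum that inhibits no protease. Its level was 397, 345 and 274 FPKM in cumulus cells at 2 months, 325, 338 and 236 at 10 months, 552 and 524 in mural cells, and 266 and 255 in the complexes. Serpinb6a, an inhibitor that stays inside cells, stood at 175, 184 and 173 FPKM in cumulus cells at 2 months and at 103 and 122 in mural cells. These 3 genes held 82.9 to 95.4% of the summed serpin FPKM in the 8 C57BL/6 libraries, 85.2% in the BDF1 complex and 73.7% in the DBA/2 complex, where Serpina3a took the third place.

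In mural granulosa cells, 4 serpins were higher and 1 was lower than in cumulus cells of the same age. Serpina5, Serpina3a, Serping1 and Serpinf1 rose and Serpinb6a fell, while the abundant Serpine2 and Serpinh1 had higher values in every mural library without passing the test. The test took genes whose FPKM averaged over all C57BL/6 libraries reached 1 (limma on log2(FPKM + 1), adjusted p over all 12412 genes, threshold 0.05), and 17 serpins were among them. Over all genes, 9.69% were called higher and 11.2% lower (20.9% in either direction). At an unadjusted p under 0.05, 6 of the 17 were higher and 1 was lower, against 16.3% and 20.5% of all genes (36.8% in either direction). The mural and the 2-month cumulus values did not overlap for 8 of the 17, 6 higher and 2 lower (Serpinb6a and Serpinb1a), against 25.6% and 32.0% of all genes (57.6% in either direction). The median log2 fold change was 0.14 over the 17 and -0.08 over all genes. Serpina3a reached the filter through the mural mean alone, and Serpina5 and Serping1 had means under 1 in cumulus cells at 2 months. Their inclusion therefore favoured a difference, and the count is no evidence about the family.

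Serpina5 encodes protein C inhibitor, which in mice is known mainly from reproductive organs. It stood at 0.302, 0.106 and 0 FPKM in cumulus cells at 2 months and at 4.45 and 2.90 in mural cells. Every mural library lay above every cumulus library (log2 fold change 2.03 ± 0.31 SE, adjusted p = 0.00708, limma). Serpina3a belongs to a mouse expansion of the human antichymotrypsin gene SERPINA3. Its values were 0.238, 0.499 and 0.192 FPKM in cumulus cells at 2 months against 5.25 and 2.28 in mural cells, again without overlap (log2 fold change 1.80 ± 0.35 SE, adjusted p = 0.0129, limma). Serpina5 did not pass without mural replicate 2 (adjusted p = 0.0564) nor Serpina3a without mural replicate 1 (adjusted p = 0.0707). Their neighbour Serpina3c, named after its values were seen, missed the filter with a mean of 0.998 over the 8 libraries. It stood at 3.94 and 3.24 FPKM in mural cells and at 0, 0.139 and 0.214 in cumulus cells at 2 months. On the other side of the filter, Serpinb1b entered with a mean of 1.01, and Serpinb1c missed it with 0.970.

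Serping1 encodes C1 inhibitor, which blocks the complement proteases C1r and C1s. It stood at 0.488, 0.769 and 0.0986 FPKM in cumulus cells at 2 months and at 4.77 and 6.90 in mural cells (log2 fold change 2.24 ± 0.56 SE, adjusted p = 0.0281, limma). The groups did not overlap, but the call was lost when any 1 of the 5 libraries compared was left out (adjusted p from 0.0601 to 0.178). Its target proteases rose as well: C1s stood at 4.49 ± 0.873 FPKM in mural (SD, n = 2) and 0.0596 ± 0.0262 in cumulus cells (SD, n = 3), and C1ra at 3.43 ± 1.40 against 0.679 ± 0.283. Both C1s and C1ra averaged under 1 FPKM in cumulus cells at 2 months, so the filter favoured a difference in them. Serpinf1 encodes PEDF, a secreted serpin that inhibits no protease and restrains vessel growth. It stood at 3.98, 2.41 and 1.73 FPKM in cumulus cells at 2 months and at 6.23 and 6.59 in mural cells (log2 fold change 1.05 ± 0.30 SE, adjusted p = 0.0423, limma). That call was lost under 9 of 16 alternatives, among them quantile normalization (adjusted p = 0.0939), no filter (0.0698) and leaving out either mural library (0.160 and 0.204).

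The mural libraries also held more transcript of genes that mark other cells of the ovary. The summed FPKM of 11 theca and stroma markers was 304 and 419 in mural cells and 37.5 to 41.8 in cumulus cells at 2 months, where Dcn was at 0 in replicate 1, Lum in replicates 2 and 3, Insl3 in replicates 2 and 3 and Col1a1 in replicate 2. The sum of 8 endothelial markers was 27.2 and 70.7 against 1.73 to 5.35, with Emcn at 0 in all 3 cumulus libraries. Aldh1a1 (194.8 and 254.1 FPKM) and Cyp17a1 (61.5 and 63.0) made up most of the theca and stroma sum in mural cells, and Ptch1 of the same list was lower there (6.58 and 6.59 against 8.61 to 10.6). The sum of 7 erythroid markers was 140.8 and 82.5 in mural cells. It was 13.3 to 21.4 in the 2-month cumulus libraries, and 23.2, 21.9 and 135.5 in replicates 1, 2 and 3 of 10 months. For 11 of the 12 immune markers, which the table held, it was 27.6 and 52.6 against 5.41 to 7.79. At least 6 of these 11 immune markers reached an FPKM of 1 in each mural library and at most 3 did in cumulus cells at 2 months. The part of these cells in the values of Serping1, Serpinf1, Serpina5 and Serpina3a was not tested. In bulk RNA, more cells of a type and more RNA per cell cannot be told apart.

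**Figure D2:**
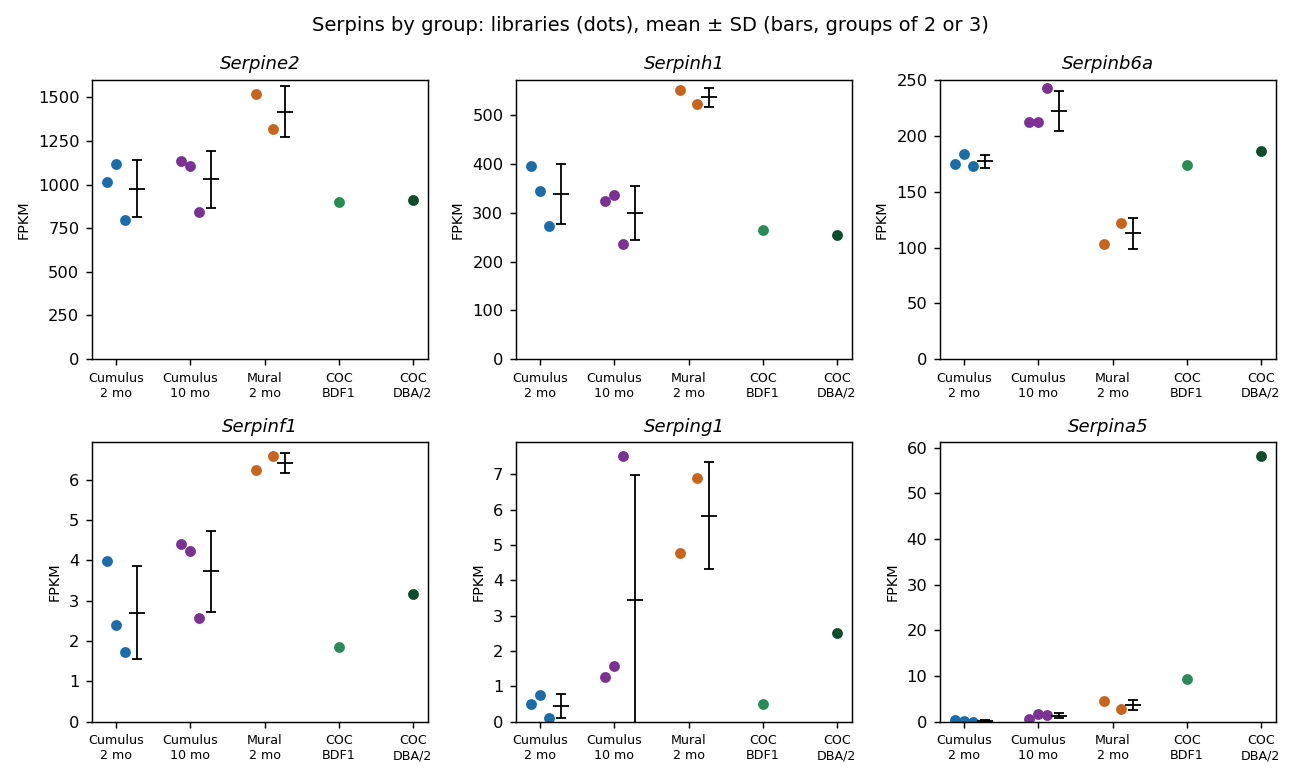
FPKM of 6 serpins in each library (dots, coloured by group), with the mean and SD of groups of 2 or 3 libraries as black bars that are clipped at 0. The mural libraries lie above all 2-month cumulus libraries for Serpine2, Serpinh1, Serpinf1, Serping1 and Serpina5 and below them for Serpinb6a.

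Serpinb6a was the member that fell, from 177 ± 5.78 FPKM in cumulus cells at 2 months (SD, n = 3) to 113 ± 13.7 in mural cells (SD, n = 2). Its log2 fold change was -0.65 ± 0.14 SE (adjusted p = 0.0174, limma). Both mural libraries lay below all 3 cumulus libraries. The call depended on scaling: with each library rescaled to the same summed FPKM the log2 fold change was -0.40 (adjusted p = 0.140), and with quantile normalization it was -0.47 (adjusted p = 0.0927). It was also lost without mural replicate 1 (adjusted p = 0.122), mural replicate 2 (0.0791) or cumulus replicate 2 at 2 months (0.0673). With rescaling the median over all genes went from -0.08 to 0.14 on the log2 scale, and the share of calls that were higher in mural cells went from 46.3% to 69.5%. The paralogues Serpinb6b (31.4 ± 2.16 against 30.6 ± 4.22 FPKM) and Serpinb1a, an inhibitor of neutrophil elastase (33.7 ± 2.61 against 29.6 ± 1.15 FPKM), did not pass (adjusted p = 0.941 and 0.779, limma).

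Serpinh1 averaged 538 ± 19.7 FPKM in mural cells (SD, n = 2) and 339 ± 61.9 in cumulus cells at 2 months (SD, n = 3). The groups did not overlap, and the test was narrowly missed (log2 fold change 0.68 ± 0.22 SE, adjusted p = 0.0633, limma). It passed with rescaling (log2 fold change 0.94, adjusted p = 0.00787, limma) and with quantile normalization (1.06, adjusted p = 0.00400). It also passed with library weights (adjusted p = 0.00632), with the replicate number as a block (0.0231) and without 10-month replicate 3 (0.0307). Under the other 12 of 17 alternatives it did not pass, such as no filter (adjusted p = 0.0912, limma). Nor did it pass without cumulus replicate 2 (adjusted p = 0.131) or 3 (0.142) at 2 months. Without mural replicate 1 or 2 its log2 fold change was 0.64 or 0.72. Among 27 tested genes that encode collagens or their folding partners, 13 rose and 1 fell, against 9.69% and 11.2% of all genes, with a median log2 fold change of 0.61 against -0.08 over all genes. All 10 tested collagen genes rose, and of the 17 other genes 3 did (Leprel2, Fkbp14 and Sparc). Of the collagens, Col1a1, Col1a2, Col3a1, Col4a2, Col5a1, Col5a2, Col6a2 and Col18a1 had means under 1 in cumulus cells at 2 months. The filter therefore favoured a difference in them, and these counts are no evidence about the list. The risers with the smallest p were Leprel2, a collagen prolyl 3-hydroxylase (12.8 ± 1.30 against 3.54 ± 0.554 FPKM), Col1a2 (13.3 ± 9.24 against 0.135 ± 0.140), Sparc, a collagen-binding matrix protein (310.2 ± 180 against 40.2 ± 5.54), Col18a1 (16.3 ± 7.27 against 0.893 ± 0.229) and Col3a1 (16.7 ± 13.6 against 0.0917 ± 0.0543). The member that fell was P4ha2, a subunit of the collagen prolyl 4-hydroxylase (14.0 ± 0.763 against 33.7 ± 2.59 FPKM). The general chaperone Hspa5 and the collagen isomerase Ppib did not pass (adjusted p = 0.683 and 0.779, limma), and were named after their values were seen. Col1a1 and Col3a1 are also among the theca and stroma markers.

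Serpine2 averaged 1419 ± 144 FPKM in mural cells (SD, n = 2) and 976.5 ± 162 in cumulus cells at 2 months (SD, n = 3), without overlap between groups, and did not pass (log2 fold change 0.55 ± 0.22 SE, adjusted p = 0.117, limma). With rescaling it passed (0.81, adjusted p = 0.0160), as it did with quantile normalization (0.98, adjusted p = 0.00400). Rescaling also raised the share of calls higher in mural cells over all genes from 46.3% to 69.5%. Under the other 15 of 17 alternatives Serpine2 did not pass, such as no filter (adjusted p = 0.243, limma). Of its protease targets, Plau, which encodes urokinase, rose to 58.3 ± 5.49 FPKM from 9.88 ± 1.46 (SD; log2 fold change 2.45 ± 0.61 SE, adjusted p = 0.0289, limma). Plat, which encodes tissue plasminogen activator, stood at 12.5, 0.0890 and 60.4 FPKM in cumulus cells at 2 months and at 7.19 and 5.19 in mural cells, with overlap, and did not pass (log2 fold change -0.44 ± 1.42 SE, adjusted p = 0.850, limma). F2, which encodes prothrombin, was under the filter, with at most 0.446 FPKM in these 5 libraries. Lrp1, the endocytic receptor that clears serpin-protease complexes, fell to 56.6 ± 11.2 from 108 ± 14.0 FPKM (log2 fold change -0.93 ± 0.23 SE, adjusted p = 0.0299, limma). Of 15 tested genes of the plasminogen, coagulation and complement list, 3 rose (Plau, C1s and C1ra) and 1 fell (Lrp1), with a median log2 fold change of 0.54; 20.9% of all genes passed in either direction, so this count is near that of all genes. In the list of other proteases and of inhibitors outside the family, 7 of 19 rose and 0 fell, against 9.69% and 11.2% of all genes, with a median of 0.79 (median of all genes -0.08). Those with the smallest p were the Kunitz inhibitor Spint2 (42.6 ± 2.17 against 14.8 ± 2.07 FPKM), the cathepsins Ctsb (122 ± 24.1 against 34.0 ± 2.34) and Ctsh (61.0 ± 6.61 against 9.68 ± 5.82), the protease-like Prss35 (139.8 ± 64.9 against 1.49 ± 0.230) and Tfpi, which inhibits the tissue factor pathway (14.5 ± 2.09 against 5.15 ± 1.28). All these lists and the 17 serpins were measured in the same libraries, and the contrast of ages uses the same 3 cumulus libraries of 2 months.

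In cumulus cells, 0 of 17 serpins passed between 10 and 2 months of age (limma), as did 0 of 12412 genes (0.0%). An unadjusted p under 0.05 was reached by 5 of the 17 serpins, all with a higher mean at 10 months, where 7.73% of all genes were higher and 6.19% lower at that level (13.9% in either direction). Of the 17, Serpinb1b, Serpinb2 and Serpinb9b had a group mean of 1 or more at 10 months alone, and Serpina5 and Serping1 had means under 1 at 2 months. The filter therefore favoured a higher value at 10 months, and the direction of these counts is no evidence about the family. The values at 10 months were uneven, and the intracellular clade B members were highest in replicate 3. Serpinb9, an inhibitor of the cytotoxic protease granzyme B, stood at 14.7, 5.98 and 48.3 FPKM at 10 months and at 5.87, 4.54 and 6.48 at 2 months (log2 fold change 1.41 ± 0.61 SE, adjusted p = 0.361, limma). Its paralogue Serpinb9b stood at 4.40, 0.422 and 16.2 FPKM against 0.343, 0.480 and 0.554 (adjusted p = 0.358). In both, replicate 2 at 10 months lay within the range of the 2-month libraries and replicates 1 and 3 lay above it.

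Serpinb1a stood at 68.7, 30.2 and 90.9 FPKM at 10 months and at 36.7, 32.5 and 31.9 at 2 months (log2 fold change 0.76 ± 0.35 SE, adjusted p = 0.393, limma). Serpinb6b stood at 53.0, 31.6 and 72.9 against 29.9, 33.9 and 30.3 FPKM (log2 fold change 0.65 ± 0.27 SE, adjusted p = 0.352). The order of the 10-month libraries was thus the same in these 4 genes: replicate 3, then 1, then 2. Serpinb2, which encodes PAI-2 and is known from activated macrophages, was named after its values were seen: it stood at 8.56 FPKM in replicate 3 at 10 months, at 0.103 in replicate 2, and at 0 in the other 8 libraries. Without 10-month replicate 2, Serpinb1a (adjusted p = 0.0241) and Serpinb9b (adjusted p = 0.04997) passed, with 245 of all genes. Without replicate 3 the log2 fold changes of Serpinb9, Serpinb9b and Serpinb1a were 0.67, 0.93 and 0.43 and none passed.

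**Figure D3:**
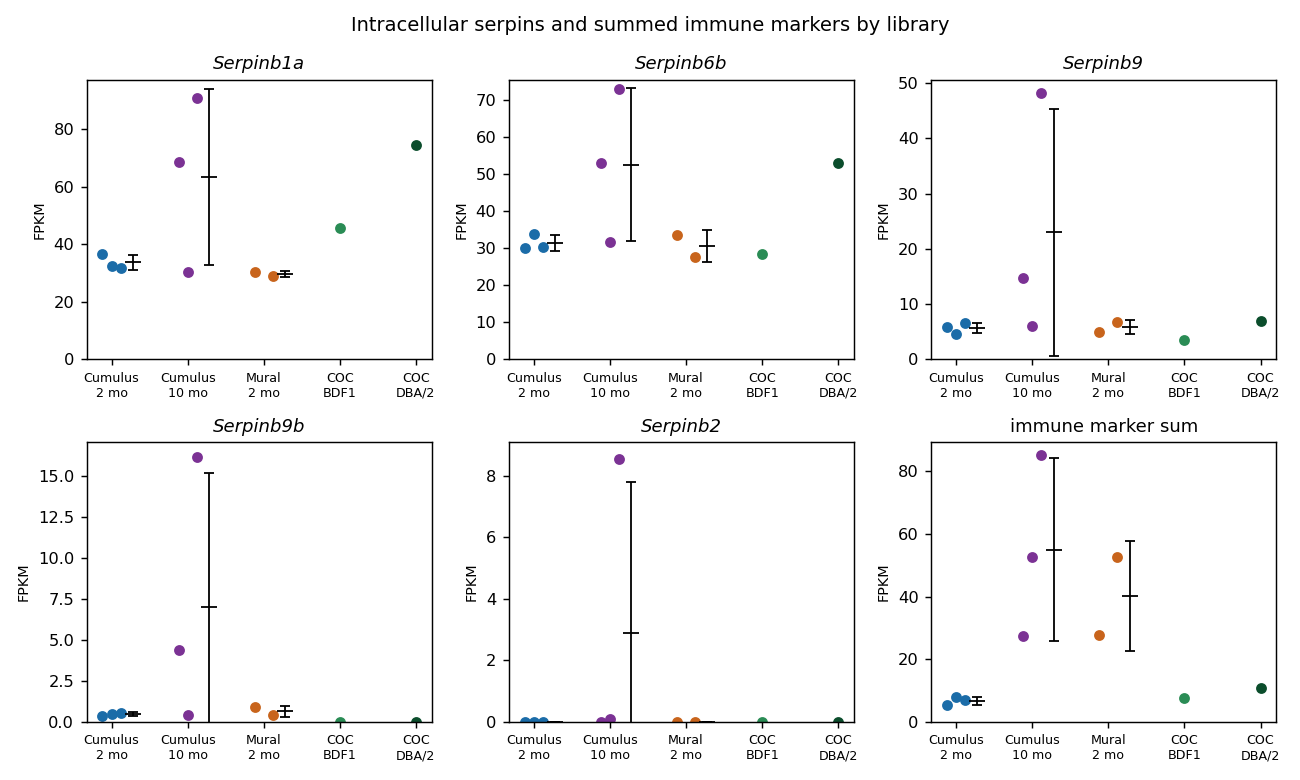
FPKM of 5 intracellular serpins and the summed FPKM of 11 immune markers in each library (dots), with the mean and SD of groups of 2 or 3 libraries as black bars that are clipped at 0. Replicate 3 at 10 months is the highest point for Serpinb1a (90.9), Serpinb6b (72.9), Serpinb9 (48.3), Serpinb9b (16.2) and Serpinb2 (8.56).

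Other genes moved with the ages as well. The summed immune markers were 27.2, 52.6 and 85.3 FPKM in replicates 1, 2 and 3 at 10 months, and 5.41, 7.79 and 6.85 at 2 months. Of the 11 markers, 6 to 8 reached an FPKM of 1 at 10 months and 2 or 3 did at 2 months, where Cd52 was at 0 in replicates 1 and 2, Tyrobp in replicates 1 and 2, Ptprc in replicate 1, Itgam in replicates 2 and 3 and Csf1r and Emr1 in replicate 2. In mural cells the immune marker sum was 27.6 and 52.6, while Serpinb9 stood at 4.88 and 6.66 FPKM and Serpinb1a at 30.4 and 28.8, near or below the 2-month cumulus values. Replicate 3 at 10 months was also the highest cumulus library in the sums of 8 endothelial markers (24.7 FPKM, against 4.54 and 6.71 in replicates 1 and 2), of theca and stroma markers (140 against 67.3 and 116) and of 9 surface epithelium markers (127 against 59.5 and 59.8). In the surface epithelium list, Krt19 and Msln were at 0 in all 3 libraries of 2 months and in replicate 1 at 10 months. Krt8 of that list went another way, at 50.1, 33.2 and 46.8 FPKM in replicates 1, 2 and 3 at 10 months. It stood at 30.8, 24.1 and 22.4 FPKM at 2 months and at 17.5 and 11.8 in mural cells. Named after their values were seen, 3 genes of the cumulus and mural lists had the order of the clade B members at 10 months, replicate 3, then 1, then 2. The other genes of both lists had other orders. In Lhcgr, Cyp11a1, Cd34, Comp, Sfrp4 and Star it was replicate 3, then 2, then 1, and in Amh and Has2 replicate 1, then 2, then 3. Of the 3 genes, Tnfaip6, a gene of cumulus expansion, stood at 9.37, 1.57 and 25.8 FPKM in replicates 1, 2 and 3. Ptgs2, which encodes a prostaglandin synthase, stood at 27.55, 2.17 and 27.63, and Kitl, which encodes the KIT ligand, at 28.04, 7.38 and 61.2. The part of other cells or of these genes' state in the clade B values was not tested.

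The ages did not overlap for 3 of the 17 serpins, all higher at 10 months, against 8.94% of all genes higher and 8.88% lower (17.8% in either direction). Serpina5 stood at 0.695, 1.76 and 1.51 FPKM at 10 months, above 0.302, 0.106 and 0 at 2 months (log2 fold change 1.01 ± 0.28 SE, adjusted p = 0.236, limma). Serpinb6a stood at 212, 213 and 243 FPKM, above 175, 184 and 173 (log2 fold change 0.32 ± 0.13 SE, adjusted p = 0.317). Serping1 stood at 1.26, 1.58 and 7.53 FPKM, above 0.488, 0.769 and 0.0986 (log2 fold change 1.37 ± 0.50 SE, adjusted p = 0.298), and its value without replicate 3 was 0.76. The sum of mural markers was also higher at 10 months, at 122, 448 and 1272 FPKM against 76.2 to 99.8, and its part in these values was not tested. Of the tested partner genes, 0 passed in each of the 3 lists (limma), where at an unadjusted p under 0.05 the plasminogen, coagulation and complement list had 8 of 15 higher and 1 lower, the list of other proteases 4 of 19 higher and 0 lower, and the collagen list 9 of 27 higher and 0 lower. Over all genes 7.73% were higher and 6.19% lower at that level. Among the higher genes, Plaur, Procr, C1qa, C1ra, C1s, Ctss, Col1a1, Col1a2, Col3a1, Col4a2, Col6a2 and Col18a1 had means under 1 at 2 months. Their inclusion favoured a higher value at 10 months, and the direction of these counts is no evidence about the lists. F3, tissue factor, stood at 47.2, 10.2 and 229 FPKM at 10 months and at 1.89, 3.47 and 6.57 at 2 months (adjusted p = 0.238, limma), with the replicates in the order of Serpinb9; it was named after its values were seen.

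In the complexes, clade A serpins appeared that were low in the other libraries. Serpina3a stood at 103 FPKM in the BDF1 and 240.4 in the DBA/2 complex, which is 19.7 and 45.8 times the highest value among the 8 C57BL/6 libraries (5.25, in mural replicate 1). Serpina5 stood at 9.38 and 58.2 FPKM against a highest value of 4.45. Summed clade A FPKM was 123 and 318 in the complexes, 17.5 and 13.6 in mural cells and 2.27 to 7.43 in cumulus cells of both ages. With 1 library per strain there is no test and no replicate check for any value of the complexes.

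Of 20 serpins with an FPKM of at least 1 in both complexes, 7 were above all 8 C57BL/6 libraries in both; the same held for 28.7% of the 11913 genes that could meet the rule. The share of the family is thus near that of all genes. The other 5 were Serpina3m (1.46 and 2.43 FPKM), Serpina3n (2.26 and 1.08), Serpinb12 (6.77 and 3.84), Serpinb3a (1.68 and 1.71) and Serpinb1c (2.48 and 3.99). Serpina3j missed the rule, at 0.964 FPKM in BDF1 and 6.96 in DBA/2, with 0.110 in 1 cumulus library and 0 in the other 7. With an FPKM of at least 5 in both complexes, 2 of 7 members met the rule, Serpina3a and Serpina5, against 29.8% of all genes.

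Serpina5 and Serpina3a lie next to each other on chromosome 12, with 0 genes between them in the RefSeq annotation, within a run of 24 clade A members of the table. Of these 24, 9 reached an FPKM of 1 in any library. To either side of the pair, Serpina4-ps1 was listed at 0 and Serpina3b at 0 in both complexes, and Serpina3c stood at 0.896 and 4.84 FPKM in the BDF1 and DBA/2 complexes. Farther along, Serpina3j, Serpina3k, Serpina3m and Serpina3n lie in a row at the end of the run, and all 4 were above 0 in both complexes, with Serpina3k at 0.184 and 0.469 FPKM. Serpina3f, Serpina3g, Serpina3h and Serpina3i, between Serpina3c and Serpina3j, were listed at 0 in both. Serpina3g, an inhibitor that stays inside cells, stood at 1.35 and 2.18 FPKM in mural cells and at 0.378, 0.757 and 1.70 in cumulus cells at 10 months, above 0.110, 0.115 and 0 at 2 months; it was named after its values were seen.

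**Figure D4:**
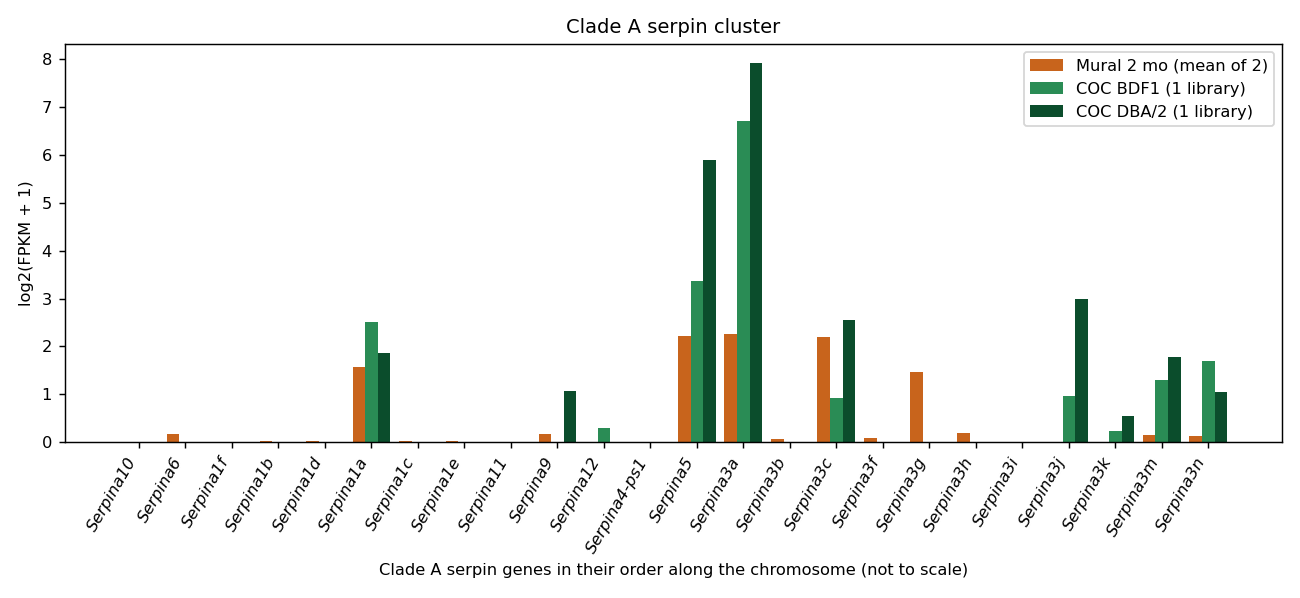
Bars of log2(FPKM + 1) for the 24 clade A serpins of chromosome 12, in gene order and not to scale, for mural cells (mean of 2 libraries) and each complex (1 library). Serpina5 and Serpina3a are neighbours and hold the highest bars, and the DBA/2 bar is above the BDF1 bar at both.

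Near-identical copies can share reads, so single values in this cluster carry different weight. In GENCODE M21 transcripts, Serpina3a shared 0.0598% of its 50-base words with other genes and Serpina5 shared 0%. By these reference sequences, their levels are little exposed to shared reads. Whether this holds for the sequences of the strains in the complexes was not tested. The shares were 3.13% for Serpina3j, 6.90% for Serpina3n and 19.1% for Serpina3m, the last mostly with Serpina3k. For Serpina1a, which encodes an alpha-1-antitrypsin and was named after its values were seen, the share was 67.4%. Serpina1a was listed at 1.03 to 4.72 FPKM in all 10 libraries while Serpina1b, Serpina1c and Serpina1d stayed at or below 0.0340 and Serpina1e at or below 0.158, so the split among these copies is uncertain. The sources used here do not give the read length.

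The strains differed at least 2-fold in 4 of the 11 serpins with an FPKM of 5 or more in either complex, against 6.36% of 9951 genes under the same rule. DBA/2 was the higher in 3 (3.08% of all genes) and BDF1 in 1 (3.29%). Serpina3a was 2.33 times, Serpina5 6.21 times and Serpina3j 7.22 times as high in DBA/2 as in BDF1. Serpinc1, antithrombin, went the other way, at 8.98 FPKM in BDF1 and 2.497 in DBA/2. Serpina3j and Serpinc1 reached 5 FPKM in 1 complex alone, so the rule favoured a difference in them. Serpina3a, Serpina5 and Serpina3j also lie in the same run of chromosome 12. The count is therefore no evidence about the family. The abundant members were close: Serpine2 was 1.01 times and Serpinb6a 1.07 times as high in DBA/2, and Serpinh1 0.958 times. These ratios compare 2 libraries, not 2 strains. Reads of both libraries were aligned to the mouse reference build. The part of sequence differences between strains in the ratios was not tested. The cumulus marker sum also differed between the BDF1 and DBA/2 libraries (737 and 275 FPKM), and its part in the ratios was not tested.

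Oocyte transcripts were also present in some cumulus libraries, which allows the complex members to be set beside them. The oocyte growth factor gene Gdf9 stood in cumulus replicates 1, 2 and 3 at 2 months at 5.90, 0.0702 and 28.2% of its mean in the complexes (922 FPKM). Plat, which encodes tissue plasminogen activator and is made by mouse oocytes, stood at 8.05, 0.0575 and 39.0%. Serpinc1 followed the same order, at 22.8, 1.85 and 102% (1.31, 0.106 and 5.86 FPKM), and so did Serpinb12, at 15.8, 0 and 36.0%. Serpinb3a stood at 16.3, 0 and 19.8%. Serpini1, neuroserpin, an inhibitor of tissue plasminogen activator, was named after its values were seen: it stood at 17.1, 4.48 and 102%, but also at 81.5 and 89.9% in mural cells, where Gdf9 was at 3.31 and 0.333%. Serpina3a did not follow Gdf9, at 0.138, 0.290 and 0.112%, nor did Serpina5, at 0.894, 0.313 and 0%. Serpinb1c, at 10.9, 17.6 and 62.95%, and Serpina3n, at 0, 6.58 and 0%, had other orders than Gdf9. Serpina3j stood at 2.78, 0 and 0%, and Serpina3m at 0% in each of these replicates. Serpina3j, Serpina3m and Serpina3n averaged only 3.96, 1.94 and 1.67 FPKM in the complexes. In mural cells Serpina3a stood at 3.05 and 1.32% and Serpina5 at 13.2 and 8.57%. The BDF1 and DBA/2 complexes differed for Serpinc1 (8.98 and 2.497 FPKM), Serpina5 (9.38 and 58.2) and Serpina3a (103 and 240.4). A percentage of their mean therefore describes neither complex for these genes. The source of these transcripts within the complex was not tested, since oocytes and cumulus cells were not separated there.

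**Figure D5:**
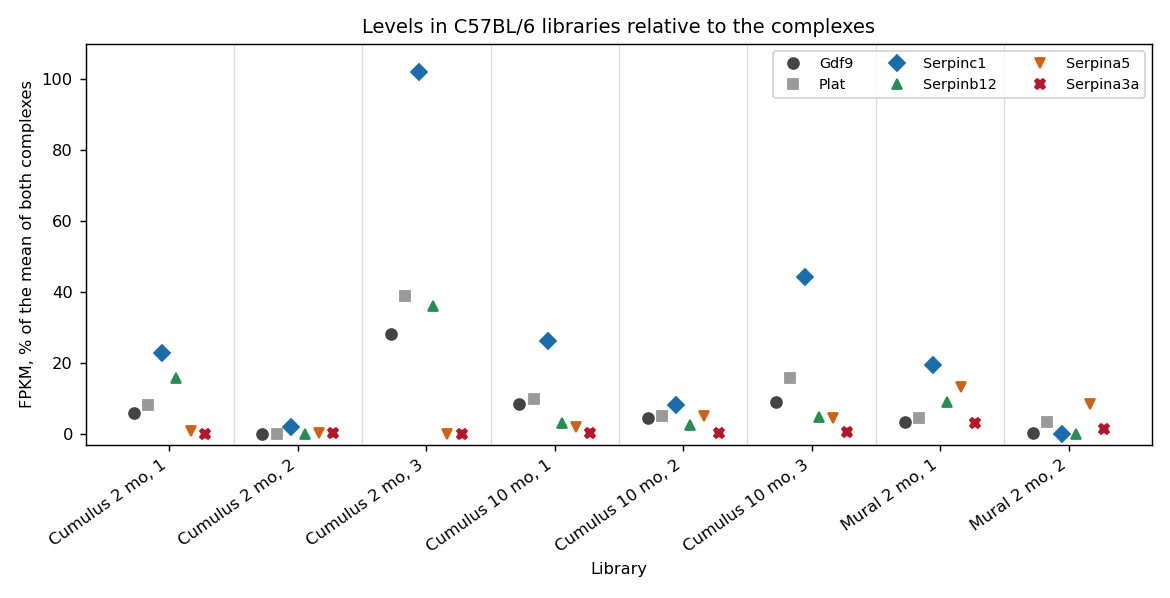
FPKM in each of the 8 C57BL/6 libraries as a percentage of the mean of both complexes, for the oocyte genes Gdf9 and Plat and for 4 serpins. In cumulus replicate 3 at 2 months Serpinc1 reaches 102% and Serpinb12 36.0%, while Serpina3a stays at 0.112% and Serpina5 at 0%. The complexes differ for Serpinc1, Serpina5 and Serpina3a, so their percentages of the mean describe neither complex.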

How the data were processed

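Total RNA was sequenced, and the authors deposited 1 table of FPKM values for 10 libraries; the submitters' processing notes name TopHat2 2.1.0, Cufflinks 2.1.0 and mouse build mm9. The sources used here do not give the annotation, strandedness, read length or depth, so no counting interval is given. The table held 23234 symbols after its 1 repeated header line was left out. The members, gene lists and tests were chosen with earlier results of these data known. All 63 members matched RefSeq symbols or synonyms, 51 had a RefSeq promoter window and 62 a GENCODE M21 transcript, both of GRCm38; no coordinates were joined to the FPKM. The values of 1 member are not reported here.

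Values of the 8 C57BL/6 libraries were set to log2(FPKM + 1), on which fold changes of low genes are understated. Genes averaging an FPKM of 1 or more entered 1 model with a term per group and 5 residual degrees of freedom (limma 3.58.1, R 4.3.3, intensity trend; two-sided moderated test, Benjamini-Hochberg adjustment over 12412 genes). The script was tested on simulated data. Complexes were compared by value: both above all 8 libraries with an FPKM of at least 1, or strains at least 2-fold apart with the higher at 5 or more. Named members passed a test, had a group mean or complex value of at least 5 FPKM, or were above all 8 libraries in both complexes; of each partner list, up to 5 genes with the smallest p are named. Others are marked as named after their values were seen. Alternatives changed the pseudocount, filter, scaling, libraries fitted, replicate block and library weights, and left out each library.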

Additional observations from a re-analysis of the deposited data

How the results depend on the processing

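The count of serpins higher in mural cells was 4. It was 0 over genes averaging 5 FPKM or more, where only 6 members are tested, 6 with rescaling or library weights, 5 with quantile normalization or no filter, 3 with only the groups compared, and 1 to 5 when single libraries were left out: 2 without cumulus replicate 2 at 2 months (Serpina3a and Serpina5), 1 without mural replicate 1 (Serpina5) and 1 without mural replicate 2 (Serpina3a). A lone mural library was assumed to vary like the other groups. The count of serpins lower in mural cells was 1, 0 with rescaling or quantile normalization, and 0 to 1 when single libraries were left out (0 without cumulus replicate 2 or either mural library). The count higher at 10 months was 0, and 0 to 2 when single libraries were left out, with 2 without 10-month replicate 2. The count lower at 10 months was 0 under all 17 alternatives. In complexes, 7 members were above all 8 libraries, 2 with a minimum of 5 FPKM and 7 with rescaling.

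For 14 gene and contrast pairs followed through 231 values, 201 stayed on their side of the threshold, 21 lost a call, 9 gained one and 0 changed direction; the causes were not tested. Over all genes, mural calls numbered 2599, and 99 to 3253 with single libraries left out, 5425 with library weights and 2548 with a pseudocount of 5. For age the count was 0, 69 with library weights, and 0 to 245 with single libraries left out.

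Replicate numbers are shared by the groups, but same-numbered libraries deviated together only in part (r = 0.006, 0.118 and 0.147 for cumulus cells of both ages, 0.032 and 0.214 for mural and 2-month cumulus cells), and not every library correlated best with its own number. With the replicate block, 5 serpins were higher in mural cells (Serpinh1 added, adjusted p = 0.0231), 1 was lower, and 3361 of all genes passed; for age 0 serpins and 0 genes passed. Depth is unknown, so low FPKM carry an unknown counting error, and with 2 mural libraries single libraries decide most calls.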
